A study of Homo sapiens with 2 samples.

Results

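The genes described here are the tubulins and the proteins that bind, fold, sever or modify microtubules: 55 genes chosen from a list of names, matched to the gene symbols of the array's platform annotation, out of 19775 genes named in the table. They were read in C4-2B, a prostate cancer cell line of the human LNCaP lineage that responds to the antiandrogen enzalutamide, and in C4-2B-MDVR, a resistant line that was derived from C4-2B through prolonged culture with enzalutamide. The labels say that both lines grew in the same medium with fetal bovine serum and antibiotics and that neither received a drug before RNA was taken. Each line was measured once, on 1 Affymetrix expression array, so there is no spread between replicates and no p-value, SE or SD can be given for any gene. The cell line label was followed for each array, but the free-text descriptions name a docetaxel-resistant line, TaxR, for the resistant sample and call C4-2B docetaxel sensitive. Docetaxel binds microtubules, so that mismatch touches these genes directly, and all directions are those of the array labelled C4-2B-MDVR, here the resistant array, against that labelled C4-2B, the parental array. The labels do not say whether the resistant line is 1 clone.

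Microtubules are hollow polymers of alpha- and beta-tubulin dimers that form the mitotic spindle and the tracks for organelle transport. Humans have several alpha and beta genes (isotypes), some used in nearly all cells and others mostly in neurons or other special cells. Cofactors fold the dimers, gamma-tubulin starts the polymer, microtubule-associated proteins (MAPs) stabilise its wall, plus-end proteins and stathmins set growth and shrinkage, and severing enzymes cut it. Taxanes such as docetaxel bind beta-tubulin inside the polymer. In prostate cancer cells microtubules also carry the androgen receptor toward the nucleus.

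The values are linear intensities and each difference is resistant minus parental on the log2 scale. A gene counted as measured when its value on the brighter array reached that array's median, called the floor (intensity 41.9 on the parental and 43.5 on the resistant array). Of the 55 genes 46 were above it, 44 of them on both arrays. The brightest probe set stood for each gene. Brightness differs between probe sets for technical reasons, so levels were not compared between genes. Both arrays correlated at 0.978 (Pearson's r of log2 values over all probe sets). Prostate luminal markers matched the labelled tissue: 9 of 10 listed markers had a probe set used here and all 9 were above the floor on both arrays, among them the cytokeratin KRT18 (4337 on the parental and 4038 on the resistant array, in that order throughout) and the surface protein EPCAM (2565 and 2207). The exceptions to near-equal levels were KLK3 (8379 and 172), KLK2 (1263 and 295) and STEAP2 (1915 and 1029). Of 8 neuronal markers 5 were above the floor, all close to it, and the summed intensity of all 8 was 372 and 402. Of the fibroblast markers 2 of 5 were above the floor (summed intensity 164 and 171). Of the blood and endothelial markers it was 1 of the 4 with a probe set (123 and 137). Those above the floor were again close to it. The sums hold different genes, so each compares the 2 arrays only.

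Most of the microtubule system was near the same level in both lines, and 5 genes stood beyond 2-fold. TUBA1A, TUBB4A, TUBB6 and the plus-end gene MAPRE2 were higher in C4-2B-MDVR, and MAP1B was lower. With all probe sets of a gene averaged MAPRE2 was within 2-fold (0.64), which left 3 higher genes. That choice left 39 genes above the floor, and 2.49% of all genes were 2-fold or more higher. The 4 higher genes were 8.70% of the 46 above the floor, beside 3.17% over all 13437 genes above the floor, and the 1 lower gene was 2.17% beside 3.5%. At 1.5-fold the counts were 6 higher and 3 lower (13.04% and 6.52%), beside 8.26% and 9.32% over all genes. The median difference of the 46 was 0.06, beside 0.04 over all genes, and 27 of the 46 (58.7%) lay above 0, beside 55.1% of all genes. Of the 46 genes 26 (56.5%) differed by less than 0.25, beside 51.4% of all genes. The members' median and share above 0 were thus close to those of all genes. The gap from the background lay in the count of genes beyond 2-fold on the higher side. The members were chosen with earlier results of these data known, so that gap cannot be read as a trait of microtubule genes.

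**Figure D1:**
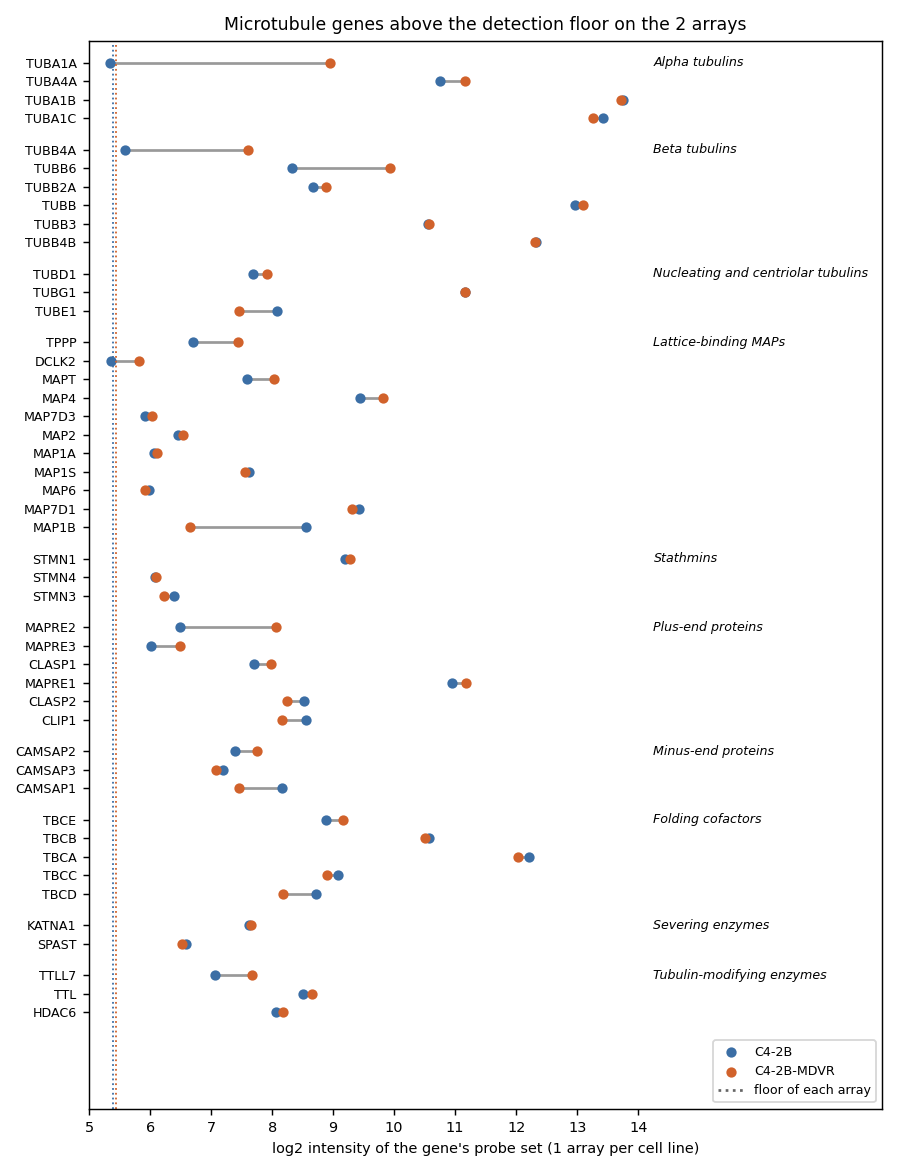
Log2 intensity (x axis) of the 46 microtubule genes above the floor, ordered by role, with 1 point for the C4-2B array (blue) and 1 for the C4-2B-MDVR array (orange), joined by a line; dotted lines mark the floor of each array. TUBA1A, TUBB4A, TUBB6 and MAPRE2 have long lines to the right, MAP1B has one to the left, and most other pairs nearly touch.

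**Figure D2:**
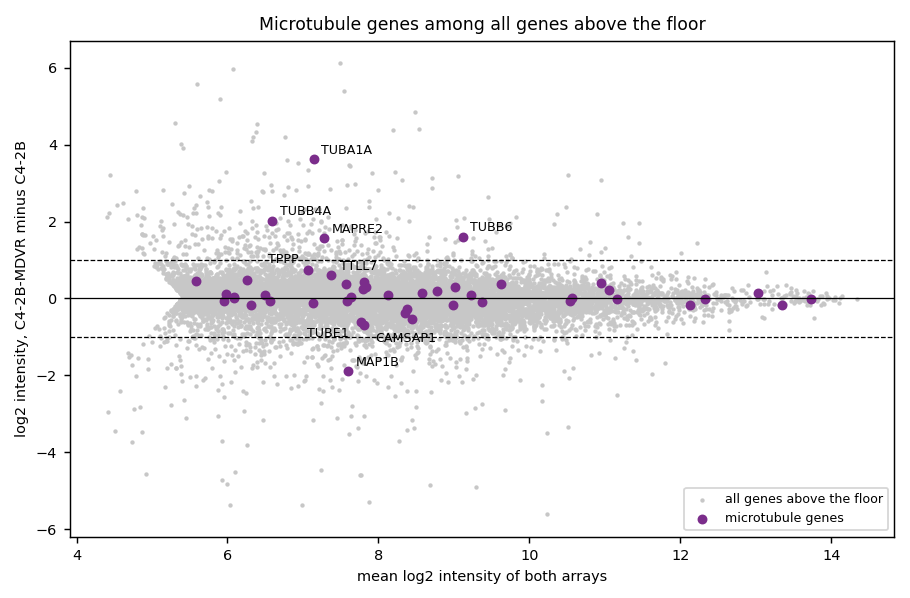
Difference in log2 intensity (y axis) against the mean log2 intensity of both arrays (x axis) for all 13437 genes above the floor (grey) and the 46 microtubule genes (purple), with dashed lines at 2-fold. The 9 labelled genes differ by 1.5-fold or more and 5 of them lie outside the dashed lines.

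Alpha-tubulins are shown first, since TUBA1A had the widest difference of all 55 genes. TUBA1A, the alpha isotype best known from developing neurons, read 40.5 on the parental array, just under its floor, and 496 on the resistant one. The measured difference was 3.62, and against the C4-2B floor TUBA1A was at least 11.8-fold higher. It rests on 1 probe set. The other alpha genes were close to level. TUBA1B, a main alpha isotype of dividing cells, went from 13710.4 to 13548.9 (−0.02), and its 5 probe sets above the floor lay between −0.10 and 0.03. TUBA1C, a near copy of TUBA1B, went from 11028 to 9823 (−0.17, and −0.09 in its other probe set). TUBA4A, an alpha isotype that is made without a C-terminal tyrosine, was at 1719 and 2279 (0.41). TUBA8 was under the floor on both arrays, at 35.7 and 37.3.

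In RefSeq gene order TUBA1A lies between TUBA1B and TUBA1C. Both neighbours differed by less than 0.2 while TUBA1A differed by 3.62, but all their probe sets above the floor have names that mark shared sequence, so these may not be separate readings. PRPH, the neuronal intermediate filament gene on the far side of TUBA1C, was at 131 and 163 (0.32).

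Among beta-tubulins, the subunits that taxanes bind, 2 of the 6 genes above the floor were beyond 2-fold, both higher. Over all genes 3.17% were 2-fold or more higher, and 6 genes are too few to set a share beside that. TUBB4A, a beta isotype mostly of brain, read 47.9 on the parental array, close to its floor, and 195 on the resistant one, a difference of 2.02 or 4.07-fold. TUBB6, a beta isotype found at low level in many tissues, went from 320.0 to 972, a difference of 1.60 or 3.04-fold. Of the 12569 genes above the floor on both arrays, 48 had a positive difference at least as wide as that of TUBB4A (0.382%) and 99 one at least as wide as that of TUBB6 (0.788%). Each of these isotypes has 1 probe set, so no further probe set checks the value.

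The remaining beta isotypes above the floor lay within 2-fold. TUBB3, the neuronal beta isotype whose protein is often studied in taxane resistance, was at 1512 and 1523 (0.01), and at 0.16 in its other probe set. TUBB4B, a widely made isotype, was at 5156 and 5078 (−0.02) and TUBB2A at 408.7 and 469.7 (0.20). TUBB2B was under the floor in its own probe set, at 16.6 and 17.6, and a probe set that names both TUBB2A and TUBB2B was at 280.2 and 322.5 (0.20). For TUBB, a main beta isotype of dividing cells, the probe sets parted: 7953 and 8766 (0.14) in the brightest, 0.11 in another, and 4150 and 2936 (−0.50) in the third, whose name does not mark shared sequence.

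Shared sequence limits these tubulin values. Tubulin isotypes are nearly alike in their coding parts, and a probe set name ending in _x_at marks probes that can also bind other transcripts, while _s_at marks probes common to several transcripts. Of the 19 alpha- and beta-tubulin probe sets above the floor that name 1 gene, 13 end in _x_at, and these differed by −0.17 to 0.16. The 5 with a plain ending differed by −0.50 to 2.02, and the 1 ending in _s_at is that of TUBA1A. The probe sets of TUBA1B, TUBA1C, TUBB3 and TUBB4B above the floor all end in _x_at, so their near-zero differences may not be separate readings of each isotype.

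The promoters of TUBA1A, TUBB4A and TUBB6 are shown because these were the tubulin genes beyond 2-fold, all in the higher direction. Each run holds the 250 bases before the most upstream RefSeq start of the gene on GRCh38.p14, read 5′ to 3′ on the gene's strand. The lines of TUBA1A (chr12:49189081-49189330, minus strand), TUBB4A (chr19:6502849-6503098, minus strand) and TUBB6 (chr18:12307419-12307668, plus strand) have matches on either strand to the motif CCAAT, the TATA box forms TATAAA with its variant TATATA, and the motif GGGCGG in capitals; TATATA reads the same on both strands.
TUBA1A: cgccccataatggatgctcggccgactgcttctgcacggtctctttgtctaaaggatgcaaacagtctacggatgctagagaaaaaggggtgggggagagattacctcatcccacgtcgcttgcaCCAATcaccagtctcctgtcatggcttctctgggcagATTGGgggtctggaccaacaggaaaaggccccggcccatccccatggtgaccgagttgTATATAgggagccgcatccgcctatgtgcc
TUBB4A: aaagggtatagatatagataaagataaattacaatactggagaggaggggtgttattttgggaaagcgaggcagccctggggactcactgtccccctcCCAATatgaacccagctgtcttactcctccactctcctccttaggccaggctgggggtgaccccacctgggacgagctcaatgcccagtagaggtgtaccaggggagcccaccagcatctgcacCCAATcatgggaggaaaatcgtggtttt
TUBB6: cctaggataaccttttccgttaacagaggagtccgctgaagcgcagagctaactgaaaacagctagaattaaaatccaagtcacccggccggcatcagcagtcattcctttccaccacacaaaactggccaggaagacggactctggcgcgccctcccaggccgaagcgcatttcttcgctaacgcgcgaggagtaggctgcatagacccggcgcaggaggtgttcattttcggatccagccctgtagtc

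The TUBA1A window held CCAAT 125 bases before the start and its reverse complement 88 bases before it, with TATATA 30 bases before it. The TUBB4A window held CCAAT 152 and 28 bases before the start, and the TUBB6 window none of the 4 motifs. CCAAT on either strand was in 33.0% of all 27305 RefSeq windows of this length and in 15 of the 49 windows matched to the 55 genes (30.6%), and TATATA in 3.96% and 2 of 49. TATAAA was in 11.2% of all windows and 4 of the 49, and GGGCGG, the core of a GC box, in 42.2% and 31 of the 49 (63.3%). The 3 windows thus shared no motif of the 4, which describes these letters only.

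The tubulins that start microtubules or sit at centrioles did not pass 2-fold. TUBG1, gamma-tubulin, was at 2300 and 2277 (−0.01). TUBD1, delta-tubulin, was at 205 and 241 (0.24), with 3 probe sets from 0.10 to 0.24. TUBE1, epsilon-tubulin, which works with delta-tubulin in centriole structure, was at 270 and 176 (−0.62, 1.53-fold lower) in the 1 probe set above the floor.

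MAP1B was the only one of the 46 genes lower by 2-fold or more in C4-2B-MDVR. It encodes a microtubule-stabilising protein best known from growing axons. The brightest probe set read 374 on the parental array and 101 on the resistant one, a difference of −1.89 or 3.71-fold. The second was at 342 and 80.5 (−2.09). The dimmest was at 58.2 and 41.5 (−0.49), the latter under the floor. Of the genes above the floor on both arrays 67 had a negative difference at least as wide (0.533%).

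Other lattice-binding MAPs were level or somewhat higher. Of the 15 genes of this role 11 were above the floor, with a median of 0.08. TPPP, which bundles microtubules and is known from oligodendrocytes, was at 104 and 174 (0.74), and at 0.19 in its other probe set above the floor. MAPT, the tau gene, was at 193 and 261 (0.43), and all 4 of its probe sets above the floor were higher, from 0.23 to 0.67. MAP4, the main MAP of non-neuronal cells, was at 697 and 900.2 (0.37), but its 6 probe sets above the floor ran from −0.24 to 0.37. MAP7D3, a kinesin-recruiting MAP, was at 60.3 and 65.5 (0.12), with its other probe set at 33.4, under the floor, and 53.3 (0.68).

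Neuronal MAPs gave no common direction. MAP2, the dendrite MAP, was at 88.1 and 93.4 (0.08), MAP1A at 67.1 and 68.8 (0.04) and MAP6 at 63.4 and 60.5 (−0.07), all near the floor. The doublecortin genes DCX and DCLK1 were under the floor on both arrays, and DCLK2 was at 40.9, under the floor, and 56.1 (0.46). MAP1S and MAP7D1 differed by −0.06 and −0.10, and MAP7D2 and TPPP3 were under the floor.

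Stathmins bind free tubulin dimers and promote shrinkage. STMN1, the stathmin of dividing cells, was at 586 and 618 (0.08), with a probe set that also names a microRNA at 0.29. STMN3 (−0.16) and STMN4 (0.02) were near the floor, and STMN2, a neuronal stathmin, was under it on both arrays at 17.1 and 25.1. None of the 3 stathmins above the floor was beyond 1.5-fold, beside 8.26% of all genes higher and 9.32% lower. A count over 3 genes is too small to be told from these shares.

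Plus-end proteins track growing microtubule tips. MAPRE2, which encodes the end-binding protein EB2, read 90.1 on the parental array and 268 on the resistant one, a difference of 1.57 or 2.98-fold. Its second probe set above the floor went from 46.9 to 66.1 (0.49), higher as well but within 2-fold and near the floor, and with all its probe sets averaged MAPRE2 was at 0.64, within 2-fold. The sister genes differed less: MAPRE1, for the widely made EB1, was at 1971 and 2309 (0.23), and MAPRE3, for EB3, at 64.7 and 90.3 (0.48) with 4 probe sets from −0.22 to 0.56. CLIP1, a rescue factor at plus ends, was at 376 and 287 (−0.39), and its 4 probe sets above the floor ran from −0.62 to 0.01. The CLASP genes, whose proteins favour regrowth, differed in sign, CLASP1 by 0.29 and CLASP2 by −0.28, and CLIP2 was under the floor.

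The CAMSAP proteins cap minus ends. CAMSAP1 was at 287 and 177 (−0.70, 1.62-fold lower), and all 3 of its probe sets above the floor were lower, from −0.70 to −0.50. CAMSAP2 was at 167 and 216 (0.37), with all 3 probe sets higher, from 0.37 to 0.55. CAMSAP3 was at −0.11 and 0.27 in its 2 probe sets. CAMSAP1 and CAMSAP2 thus differed in opposite directions, each by less than 2-fold.

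The folding cofactors, which assemble the alpha-beta dimer, had a median of −0.17 over 5 genes. Of these 4 lay under 0, beside 44.8% of all genes. At 1.5-fold 0 of the 5 passed, beside 8.26% of all genes higher and 9.32% lower. With 5 genes neither count can be told from these shares. TBCA, which holds beta-tubulin, was at 4730.1 and 4205 (−0.17), TBCB and TBCC were at −0.07 and −0.17, and TBCE at 0.29. TBCD was at 420.2 and 291 (−0.53), but its 5 probe sets above the floor ran from −0.53 to 0.40. Of the severing enzymes, KATNA1, the katanin catalytic subunit, was at 0.03 and SPAST, spastin, at −0.06, and FIGN was under the floor.

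The 3 tubulin-modifying enzymes among these genes lay within 2-fold. TTLL7, which adds glutamates to beta-tubulin, was at 134 and 204 (0.60, 1.52-fold higher) in the 1 probe set above the floor; another was at 30.62 and 18.02, under the floor on both arrays. TTL, which restores the C-terminal tyrosine of alpha-tubulin, was at 365 and 402 (0.14), and the deacetylase HDAC6 at 269 and 288 (0.10).

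Probe sets of the same gene give the only repeat readings on these arrays, though they share the RNA and the array. Those of some genes, such as TUBA1B, all end in _x_at above the floor and may not be separate readings. For 27 of the genes 2 or more probe sets were above the floor, and the gap between the highest and lowest difference within a gene had a median of 0.20, beside 0.34 over the 6261 such genes of the whole table. In 14 of the 27 the probe sets lay within 0.25 of each other, and in 10 they had both signs. The widest gaps were those of MAP1B (1.60) and MAPRE2 (1.08), where all probe sets above the floor still had 1 sign, and TBCD (0.93), where they did not. A difference under 0.34 is thus no wider than the typical gap between probe sets of 1 gene, which does not measure spread between replicates.

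**Figure D3:**
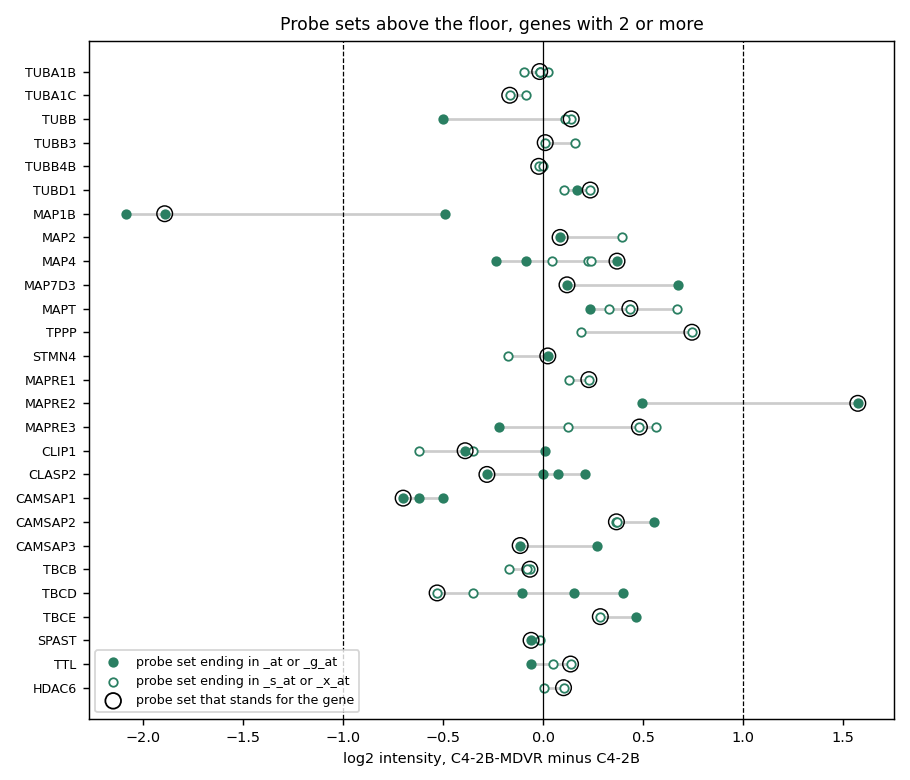
Difference in log2 intensity (x axis) of each probe set above the floor for the 27 genes with 2 or more. Open points end in _s_at or _x_at and filled points do not. Rings mark the probe set that stands for the gene, and dashed lines mark 2-fold. MAP1B points all lie left of 0 and MAPRE2 points right of it, while TUBB, MAP4, MAPRE3 and TBCD straddle it.

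The protein-coding neighbours of the 5 genes beyond 2-fold were read as well, 3 on either side. Around MAP1B, MCCC2, a subunit of a mitochondrial carboxylase, was at 1251 and 315 (−1.99) and BDP1, a transcription factor of RNA polymerase III, at 537 and 267 (−1.01), and on the other side MRPS27 and PTCD2 were at −0.45 and −0.48. CARTPT, next to MAP1B, was near the floor at 62.4 and 65.7 (0.07). Around the 4 higher genes 0 of the 19 neighbours above the floor were 2-fold or more higher, beside 3.17% of all genes, a share too small to show in 19 genes. Next to TUBB6 they were lower, with AFG3L2 at −0.52, PRELID3A at −1.07 (at least 2.05-fold lower, since its resistant value was below the floor) and SPIRE1 at −0.58. In all, 3 of the 24 measured neighbours (12.5%) were lower by 2-fold or more, beside 3.5% of all genes. Of these, 2 were among the 5 measured neighbours of MAP1B, itself picked for being lower, and the other was PRELID3A. The pooled share thus rests mainly on the surroundings of MAP1B, and 24 genes are few for a share. TUBA1B and TUBA1C, which belong to the 55 genes, are among the 24. DNA copy number was not measured, and its part in these values was not tested.

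**Figure D4:**
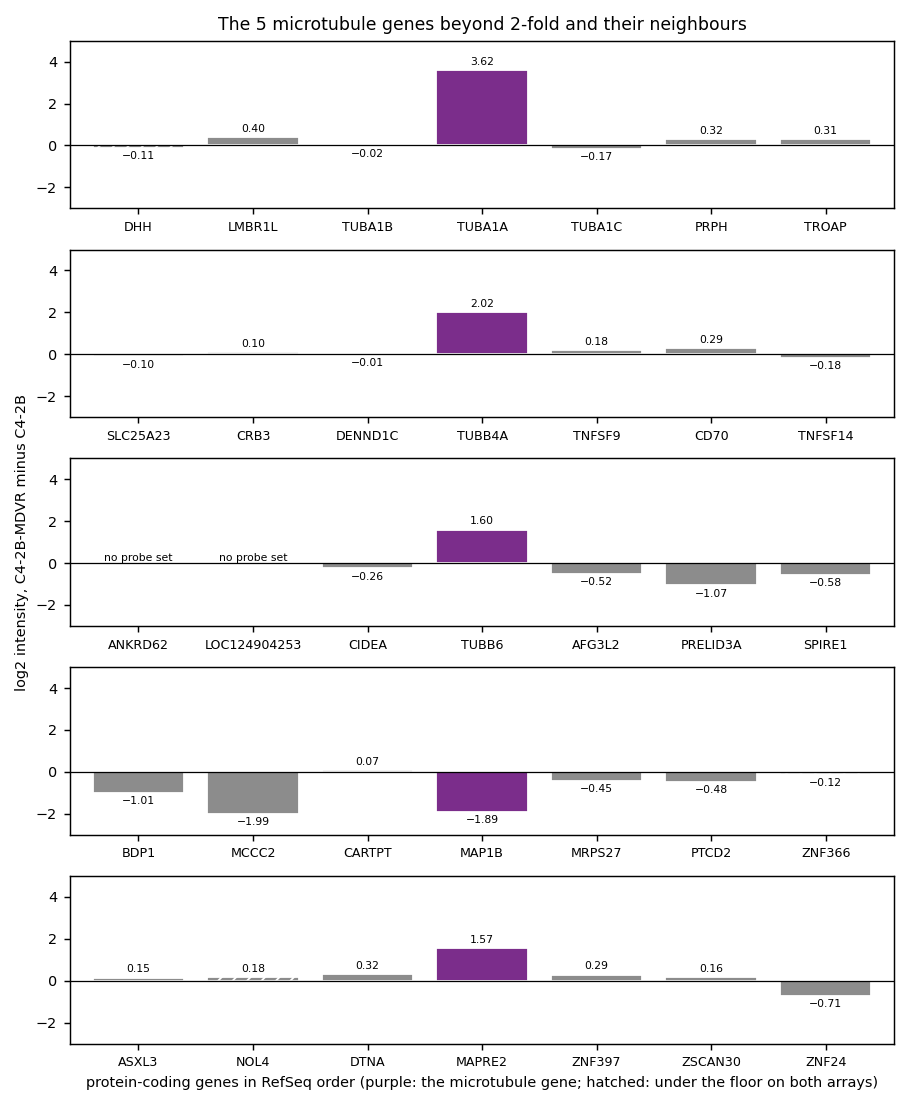
Difference in log2 intensity (y axis) of the 5 microtubule genes beyond 2-fold (purple) and of 3 protein-coding neighbours on either side in RefSeq order (grey; hatched when under the floor on both arrays). TUBA1A, TUBB4A, TUBB6 and MAPRE2 stand alone above 1, whereas MAP1B has MCCC2 and BDP1 below −1 nearby.

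A second list held 108 other microtubule genes: further tubulins and nucleation factors, modifying enzymes, MAPs, kinases that act on MAPs, and motors. Of the 102 with a probe set used here 92 reached the floor; 2 of these (2.17%) were higher by 2-fold or more and 10 (10.9%) lower, beside 3.17% and 3.5% of all genes, and the median was 0.03. Taking the floor in place of any value below it, 8 were still 2-fold or more lower and 2 higher. The lower side thus held a larger share than over all genes, unlike the 55 genes above, where the higher side did. Both lists were chosen with earlier results of these data known, which limits that contrast.

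The higher pair were KIF1A, a motor for synaptic vesicle precursors, at 172.7 and 379.8 (1.14, with its other probe set at 0.32), and MARK1, a kinase that frees MAPs from microtubules, at 48.8 and 101 (1.04). MAP9, a spindle and cilium MAP, was lowest at 342 and 102 (−1.74), with 4 probe sets above the floor from −1.74 to −0.48. CDK5R1, the activator of the tau kinase CDK5, was at 128 and 53.4 (−1.26), the motor KIF21A at 636 and 267 (−1.25) and the motor KIF13B at 107 and 47.4 (−1.18). KATNAL1, a katanin-like severing enzyme, was at −1.24 and −0.35 in its 2 probe sets, SLAIN1, a partner of plus-end proteins, at −1.19, and TUBGCP3, a gamma-tubulin ring subunit, from −1.17 to −0.29 over 3. MTUS1 was at −1.01 in its brightest probe set but reached 0.46 in another, so its direction depends on the probe set. MID1, a microtubule-binding ubiquitin ligase, was counted at 0.63, with both values near or under the floor, but its other probe set read 9.33, under the floor, and 58.6 (2.65). AGBL3 (−1.03) and NAV3 (−1.42) were below the floor on the resistant array, and for NAV3, which read 42.1 on the parental one, no bound can be given.

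TUBGCP3, SLAIN1 and KATNAL1 lie on chromosome 13 in RefSeq. Of the 5 genes of this second list above the floor there, 3 were 2-fold or more lower, with MZT1 at −0.13 and MTUS2 at 0.19. Chromosome 13 held 189 genes above the floor, of which 21.7% were lower than the parental value by 2-fold or more, and their median difference was −0.53. The share of 3 in 5 is therefore to be read against a chromosome where many genes were lower.

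**Figure D5:**
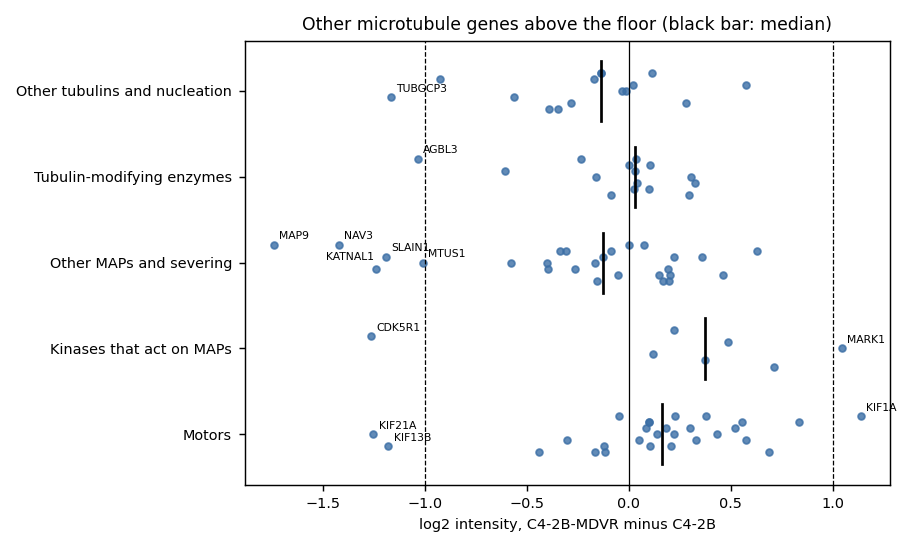
Difference in log2 intensity (x axis) of the 92 other microtubule genes above the floor, 1 point per gene, grouped by role, with black bars at the group medians and dashed lines at 2-fold; the vertical offset of points has no meaning. The 10 labelled genes on the left are 2-fold or more lower, and KIF1A and MARK1 on the right 2-fold or more higher.

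TUBA1A and TUBB4A are abundant in neurons, and they were higher in C4-2B-MDVR. Of the 8 neuronal markers, SYT1, NEFL and ELAVL4 were under the floor on both arrays, and the 5 above it differed by 0.04 to 0.25, the widest being GAP43 at 62.5 and 74.4. Other genes of both lists that are abundant in neurons, named here without a fixed rule, differed in either direction. The balance of directions depends on which genes are named. MAPT (0.43), KIF1A (1.14), KIF3C (0.83), KIF5C (0.57) and KIF5A (0.30) were higher, and MAP1B (−1.89) and CDK5R1 (−1.26) lower. Also higher were MAPRE3 (0.48, with probe sets from −0.22 to 0.56) and DCLK2 (0.46, under the floor on the parental array). TUBB3 was at 0.01, MAP2 at 0.08, MAP1A at 0.04, MAP6 at −0.07, STMN3 at −0.16 and STMN4 at 0.02. DCX and STMN2 were under the floor.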

How the data were processed

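Trizol-extracted total RNA of both lines was amplified, fragmented and labelled with biotin before hybridization, per the labels' protocols. The authors deposited 1 intensity per probe set and array; the range of the values shows a linear scale. How they corrected background, normalized and summarized is not given in the sources used here. Log2 was taken of the values with no other step. The table held 54675 probe sets and 0 further sample columns.

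Genes were named by the platform annotation of the array: 41097 probe sets had 1 symbol, 1801 had several and 11777 had none. The 55 genes had 147 probe sets with 1 symbol (98 above the floor) and 2 with several, which stood for no gene. All 55 matched the RefSeq symbol (GRCh38.p14) of their Entrez identifier. RefSeq also gave gene order, chromosome and promoter windows (49 of 55 matched; the most upstream start was used). No coordinates of probe sets are given.

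The members, the second list and the markers were chosen with earlier results of these data known. The rule for naming genes with both intensities took all tubulins and other members with a probe set above the floor that differed by 0.58 or more; intensities of further members were added after their values were seen. With 1 array per line nothing was tested; the number of arrays limits the precision. Alternatives of scaling were median centring, quantile normalization and loess (span 0.3). Others were the mean of probe sets, preference for probe sets not ending in _s_at or _x_at, shared probe sets, other floors and fold sizes. Counting was checked on simulated arrays, where genes well above the floor were shifted by far more than the added noise. That checks the counting only and does not bear on genes near the floor, such as TUBA1A and TUBB4A. Python 3.11.15, numpy 2.4.6, pandas 2.3.3, statsmodels 0.14.6 and matplotlib 3.10.9 were used.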

Additional observations from a re-analysis of the deposited data

How the results depend on the processing

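The count of 4 microtubule genes 2-fold or more higher and of 1 lower stayed the same under median centring, quantile normalization and loess. Shared probe sets, a floor at the 25th or 75th percentile, no floor and values raised to the floor gave 4 and 1. Preferring probe sets that do not end in _s_at or _x_at gave 4 and 1 as well. Genes without such a probe set kept theirs, among them TUBA1A, whose 1 probe set ends in _s_at. Averaging all probe sets of a gene left 39 members above the floor, with 3 higher and 1 lower, since MAPRE2 was then at 0.64. Over all genes 2.49% were higher and 2.57% lower under that choice. At 1.5-fold 6 were higher and 3 lower, beside 8.26% and 9.32% of all genes. At 3-fold 3 were higher and 1 lower, beside 1.45% and 1.2%. These counts changed by the wider or narrower limit itself. The median difference ran from 0.0037 (median centring) to 0.08. TUBA1A, TUBB4A and TUBB6 have 1 probe set each, so the probe set choices could not alter their values. The scalings moved all 5 genes beyond 2-fold by far less than their differences. A sign change was thus hardly possible for these 5 genes, and 0 of their 25 values changed sign. Of all 105 values of 21 named genes 8 did, in TUBB (−0.08 with averaged probe sets), TTLL7 and, at sizes under 0.05, TUBB3, TUBG1, TUBA1B and TUBB4B under other scalings, and 7 moved by more than 0.34, the median gap between probe sets of a gene. With the mean of probe sets, which took in dim ones, MAP1B was at −1.49, TPPP at 0.37, CAMSAP1 at −0.33 and TTLL7 at −0.03. With the preferred endings TUBB was at −0.50 and TPPP at 0.16, the latter in a probe set under the floor on both arrays. No paired analysis was possible because each line has 1 array, and no replicate could be left out. Signal near the floor limits TUBA1A, TUBB4A and the dimmest MAP1B probe set.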
